A study of Zea mays with 10 samples.

Results

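The maize bZIP factor Opaque-2 and the related factors ohp1, GBF1, bZip112 and BZO2H2 were followed as 5 transcripts among the 28580 gene IDs measured in endosperm RNA. They were picked by gene ID: GRMZM2G015534 (o2), GRMZM2G016150 (ohp1), GRMZM2G011932 (GBF1), GRMZM2G103647 (bZip112, also listed as bZIP17) and GRMZM2G098904 (BZO2H2). Their levels in these same libraries were known when they were picked, so the genotype values of the 5 genes are given as a description, with no test. Kernels came from greenhouse-grown, self-pollinated plants at 15 days after pollination. One genotype was the inbred line B73 (called WT) and the other B73o2, an opaque-2 mutant carried in the B73 background (called the mutant). The mutant allele is not named in the labels, and both genotypes share the B73 background. Polyadenylated RNA of hand-dissected endosperm was sequenced in 3 WT and 3 mutant libraries, and the 4 chromatin libraries of the study were not used here. Replicates carry numbers but no label names separate plants or ears, so p-values reflect only how these libraries vary, and that variation may be technical.

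Proteins of the bZIP class bind DNA as dimers through a basic region followed by a leucine zipper, and many plant members recognise sites with an ACGT core. Opaque-2 is the classical endosperm member: it activates the 22-kDa alpha zein genes and other storage-phase genes, and mutant kernels are opaque and richer in lysine. The Opaque-2 heterodimerizing proteins, ohp1 and ohp2, were named for pairing with it, and GBF1 is a G-box binding factor first described in maize for the promoter of an alcohol dehydrogenase gene.

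The 6 RNA libraries held between 52906484 and 66795114 reads, of which 28614800 to 48169603 mapped uniquely. The genotypes differed in this: 54.1% to 65.4% of reads mapped uniquely in WT and 71.6% to 72.1% in the mutant. Reads that mapped to several places made up 26.9% to 38.6% in WT and 20.8% to 21.7% in the mutant. Levels are RPKM, reads normalised by gene length and sequencing depth, as deposited. The column medians were alike (1.56 to 1.60 RPKM), whereas the column sums ran from 207265 to 2588142 RPKM and were 696998 or more in WT and 264780 or less in the mutant. The 8 central starchy endosperm markers (3 gamma zeins, bt2, sh2, wx1, sh1 and FL1) summed to 10675 to 33837 RPKM in WT and 9096 to 22262 RPKM in the mutant, far above the sums of the other marker lists. Of the 8, 2 (bt2 and sh2) were higher in the mutant without overlap, and 0 were lower without overlap. Of all 18687 genes tested below, 14.4% were higher and 11.7% lower without overlap, so nothing is read from this count. Markers of other kernel parts differed between libraries. The 6 basal transfer layer IDs (BETL1, betl2, betl10, MEG1, MRP1 and mn1) summed to 164, 65.7 and 3.66 RPKM in WT replicates 1 to 3 and to 45.8, 153 and 19.0 RPKM in the mutant replicates. The 2 embryo IDs (ole1 and glb1) summed to 32.04 to 104 RPKM in WT and 3.21 to 19.5 RPKM in the mutant, without overlap. On its own, ole1 did not overlap, and glb1 did (3.80 to 17.6 RPKM in WT, 1.32 to 6.04 RPKM in the mutant). The 2 aleurone IDs (Nkd1 and vp1) summed to 8.88 to 21.6 RPKM and 19.9 to 22.2 RPKM. No ID of these lists was at 0 in any library, and none of the list of green maternal tissue markers was matched. In such bulk samples, fewer cells of a type and less RNA per cell cannot be told apart.

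The o2 transcript was the most abundant of the 31 bZIP IDs in WT and close to lost in the mutant. The 3 WT libraries had 112, 86.1 and 163 RPKM, and the 3 mutant libraries had 0.212, 0.173 and 0.254 RPKM. The groups were far apart, with means of 121 ± 39.3 and 0.213 ± 0.0401 RPKM (SD, n = 3 each). By mean level o2 stood 197th of the 28580 IDs in WT and 26838th in the mutant. Its log2 fold change (-8.55 ± 0.25 SE, 3 libraries each) is on the log2(RPKM + 0.1) scale, which understates the change of low transcripts. No library went against its label at this gene.

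The bZip112 transcript, the second of the 5 genes by WT level, was also nearly lost. Its level was 11.3, 10.4 and 13.7 RPKM in WT and 0.356, 0.396 and 0.864 RPKM in the mutant. All 3 mutant values lay below every WT value, and mutant replicate 3 stood above the others. The mutant mean of 0.539 ± 0.282 RPKM (SD, n = 3) was 4.57% of the WT mean of 11.8 ± 1.74 RPKM (SD, n = 3), with a log2 fold change of -4.29 ± 0.30 (SE).

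GBF1 was low in the mutant to a like degree. Its values were 5.06, 3.48 and 6.27 RPKM in WT and 0.334, 0.343 and 0.385 RPKM in the mutant. The 3 mutant libraries were close to each other and all far below WT. The mean went from 4.94 ± 1.40 to 0.354 ± 0.0272 RPKM (SD, n = 3 each), to 7.17% of the WT mean, and the log2 fold change was -3.43 ± 0.23 (SE).

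BZO2H2, whose name marks it as an Opaque-2 homologue, was lower by a smaller step. It had 6.62, 5.69 and 6.85 RPKM in WT and 3.52, 3.08 and 2.79 RPKM in the mutant. The groups did not overlap, and the spread within each was small, with coefficients of variation of 9.62% in WT and 11.8% in the mutant. Its mean in the mutant was 49.0% of that in WT, and the log2 fold change was -1.01 ± 0.15 (SE).

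ohp1 was the member whose groups overlapped. It had 6.41, 5.40 and 5.42 RPKM in WT and 5.47, 5.02 and 5.19 RPKM in the mutant. The highest mutant library stood above WT replicates 2 and 3. Its mean in the mutant was 91.0% of that in WT, and the log2 fold change was -0.13 ± 0.13 (SE). The close relative ohp2 (GRMZM2G007063), which may share reads with ohp1 in a way the sources do not state, had 1.60 ± 0.0954 RPKM in WT and 1.75 ± 0.292 RPKM in the mutant (SD, n = 3 each; limma adjusted p = 0.757).

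**Figure D1:**
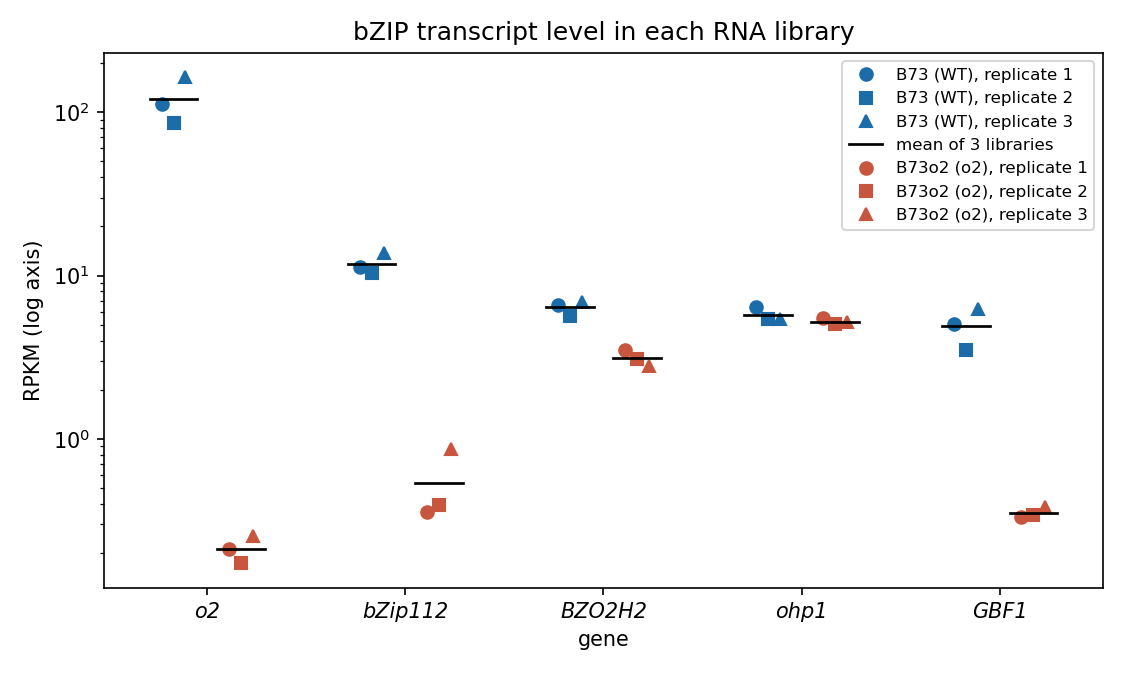
RPKM of o2, bZip112, BZO2H2, ohp1 and GBF1 in each of the 3 WT (blue) and 3 mutant (red) libraries on a log axis, with a bar at the mean of 3 libraries and a symbol for each replicate number. The mutant points of o2, bZip112 and GBF1 lie below 1 RPKM, those of BZO2H2 between 2.79 and 3.52 RPKM, and those of ohp1 at the level of WT.

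In 4 of the 5 genes every mutant value lay below every WT value, as it did in 11.7% of the 18687 genes tested. A mutant mean of at most 10% of the WT mean was found in o2, bZip112 and GBF1, and in 0.535% of tested genes. With BZO2H2, 4 genes had at most 50% of the WT mean, as had 3.79% of tested genes. These counts come from the contrast the 5 genes were picked with, so nothing is read from them. All 5 genes passed the filter on low values (1 RPKM or more in at least 3 libraries), but o2, bZip112 and GBF1 stayed below 1 RPKM in every mutant library and passed through their WT values alone.

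The order of the levels changed between the genotypes. In WT, o2 was 10.2 times bZip112 and bZip112 was 1.85 times BZO2H2, and neither pair of ranges overlapped. The ranges of BZO2H2 and ohp1 overlapped, as did those of ohp1 and GBF1. Within libraries, BZO2H2 was above ohp1 in each of the 3, and ohp1 was above GBF1 in 2 of the 3. In the mutant, ohp1 was highest at 1.67 times BZO2H2, and BZO2H2 was 5.81 times bZip112, without overlap in either case. The ranges of bZip112 and GBF1 overlapped there, although bZip112 was above GBF1 within each of the 3 libraries. The lowest of the 5 was o2, with GBF1 at 1.66 times its level and no overlap. All of these comparisons are between RPKM values, which are per gene length.

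Ratios to ohp1 within a library do not depend on how that library was scaled. The o2 level was 17.5, 15.9 and 30.2 times that of ohp1 in the WT libraries and 0.0388, 0.0346 and 0.0489 times in the mutant libraries. For bZip112 the ratio was 1.76, 1.92 and 2.53 in WT and 0.0652, 0.0789 and 0.166 in the mutant, a 20.0-fold difference of means. GBF1 stood at 0.790, 0.645 and 1.16 times ohp1 in WT and at 0.0611, 0.0683 and 0.0741 times in the mutant. In WT, BZO2H2 was at 1.03, 1.05 and 1.26 times ohp1, above it in each library, and in the mutant at 0.644, 0.613 and 0.537 times, below it in each. The ratio differed 1.87-fold between the genotype means. These ratios show that the genes changed unequally, and not which of a pair changed.

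**Figure D2:**
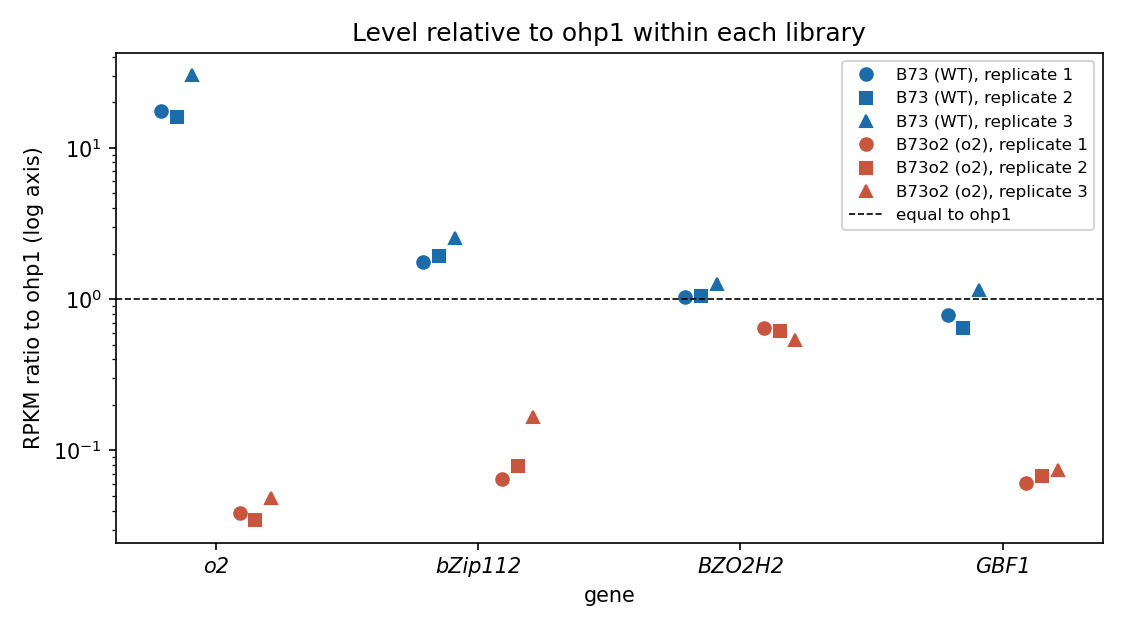
RPKM of o2, bZip112, BZO2H2 and GBF1 divided by the RPKM of ohp1 in the same library, on a log axis, for 3 WT (blue) and 3 mutant (red) libraries with a symbol for each replicate number and a dashed line at equality. The WT and mutant points are apart for all 4 genes, from 0.537 to 0.644 against 1.03 to 1.26 for BZO2H2, to 0.0346 to 0.0489 against 15.9 to 30.2 for o2.

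Within WT, the libraries fell in the same order for 4 of the 5 genes: o2, bZip112, GBF1 and BZO2H2 were highest in replicate 3 and lowest in replicate 2, as were 28.2% of all tested genes. The summed RPKM of the starchy endosperm markers had that order too, at 20366, 10675 and 33837 RPKM, whereas the basal transfer layer markers were lowest in replicate 3. The part of these marker levels in the values of the 4 genes was not tested. In the mutant, o2, bZip112 and GBF1 were highest in replicate 3, as were 35.4% of tested genes, and the starchy endosperm markers were highest there as well, at 22262 against 9096 and 11516 RPKM. Without replicate 3 of both genotypes, a comparison added after the data were seen, the log2 fold changes were -8.40 for o2, -4.52 for bZip112, -3.29 for GBF1, -0.88 for BZO2H2 and -0.16 for ohp1.

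None of the other tested genes listed as bZIP passed the test for a genotype difference. The reference gene table gave a bZIP symbol to 26 further IDs with 24 distinct symbols, since 3 IDs are listed for bZIP34. Only 1808 of the 28580 IDs had a gene name, so bZIP genes without one are missing from the list. Of these 26 IDs, 15 passed the filter and were tested with limma, and 0 were called in either direction at an adjusted p under 0.05, where 3.56% of all tested genes were. At an unadjusted p under 0.05, 2 were lower (bZIP7 and bzip76) and 1 was higher (mlip15). The share of all tested genes at that unadjusted threshold was not counted. Nothing is read from the unadjusted counts, for this list or those below. The median log2 fold change of the 15 was 0.08, against 0.05 over all tested genes, and 12 of them lay within 0.5 of 0. The 11 IDs that were not tested had values up to 2.60 RPKM.

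mlip15 (GRMZM2G448607), named as a low-temperature-induced bZIP protein, was the second of the 31 listed bZIP IDs in WT and the first in the mutant. It had 33.2, 37.0 and 65.2 RPKM in WT and 104, 62.5 and 115 RPKM in the mutant. The groups overlapped by 1 library on each side, and the log2 fold change of 1.07 was not called (limma adjusted p = 0.164, and 0.0944 to 0.415 over 15 alternatives other than rescaling to equal column sums). OBF1 (GRMZM2G479885), a factor named for binding the octopine synthase promoter element, had 11.3 ± 1.12 RPKM in WT and 15.4 ± 4.57 RPKM in the mutant (SD, n = 3 each; limma adjusted p = 0.430). By mean level over the 6 libraries bZIP43 (GRMZM2G149150), bZIP52 (GRMZM2G174284) and bZIP46 (GRMZM2G037910) came next, and they had log2 fold changes of 0.31, 0.16 and -0.28 (limma adjusted p = 0.488, 0.798 and 0.610).

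The closest case among the others was bZIP7 (GRMZM2G006578), chosen after its values were seen. It had 1.21, 2.25 and 1.17 RPKM in WT and 0.618, 0.595 and 0.214 RPKM in the mutant, without overlap. Its log2 fold change of -1.55 was not called (limma adjusted p = 0.101), and it was called under quantile normalization (adjusted p = 0.0441) and under no other of 14 alternatives. bzip76 (GRMZM2G055413), also chosen after its values were seen, had 3.36 ± 0.207 RPKM in WT and 2.36 ± 0.548 RPKM in the mutant (SD, n = 3 each; limma adjusted p = 0.183), again without overlap.

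**Figure D3:**
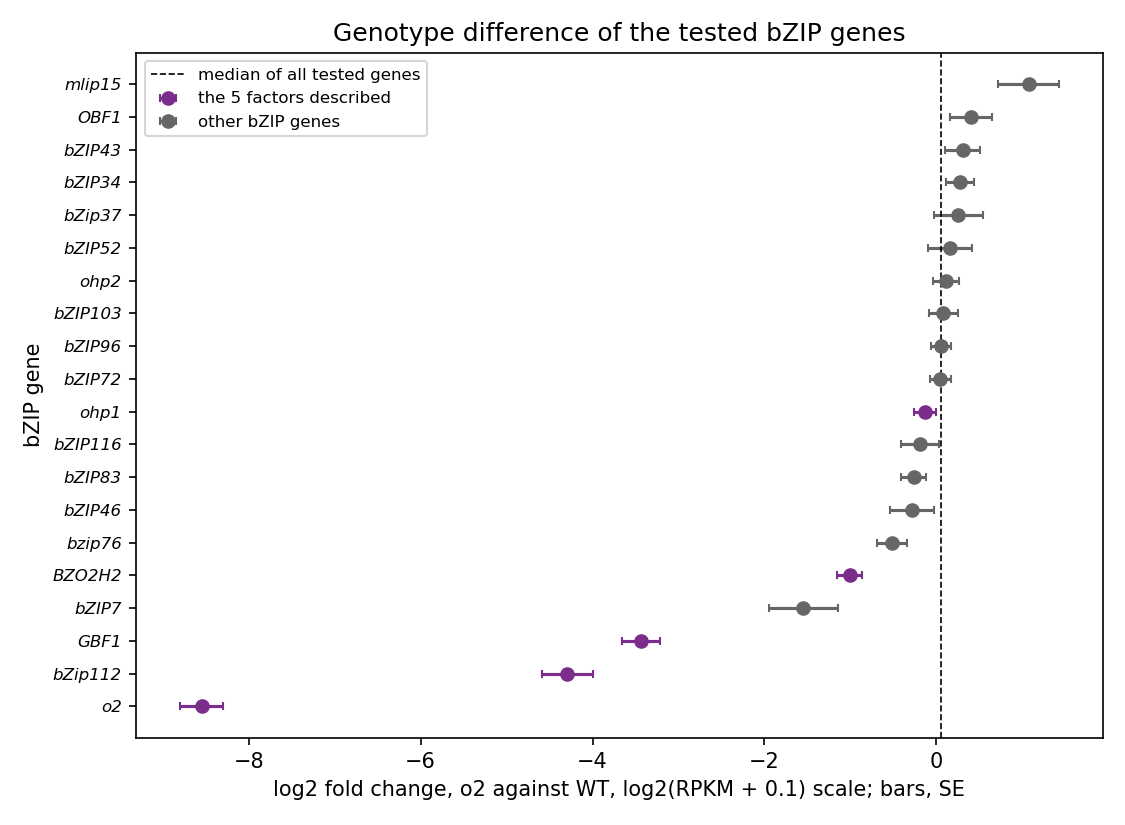
Log2 fold change of the mutant against WT on the log2(RPKM + 0.1) scale, with its standard error, for the 5 factors (purple) and the 15 other tested bZIP genes (grey), ordered by value, and a dashed line at 0.05, the median of all tested genes. The 5 factors run from -8.55 (o2) to -0.13 (ohp1), and the others from -1.55 (bZIP7) to 1.07 (mlip15).

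The make-up of the summed level of the listed bZIP IDs shifted accordingly. Over 31 IDs the sum was 224, 193 and 308 RPKM in WT and 169, 121 and 172 RPKM in the mutant. In WT, o2 alone made up 50.02%, 44.7% and 53.0% of it, and in the mutant 0.125%, 0.143% and 0.148%. The 5 genes together went from 61.4% ± 3.29 to 6.27% ± 1.03 of the sum (SD, n = 3 each). The share of mlip15 was 14.8%, 19.2% and 21.1% in WT and 61.5%, 51.6% and 67.0% in the mutant. A share rises when another member of the sum falls, and the sum without the 5 genes was 82.6, 81.8 and 113 RPKM in WT and 159, 112 and 162 RPKM in the mutant, with 1 mutant value just below the highest WT value.

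**Figure D4:**
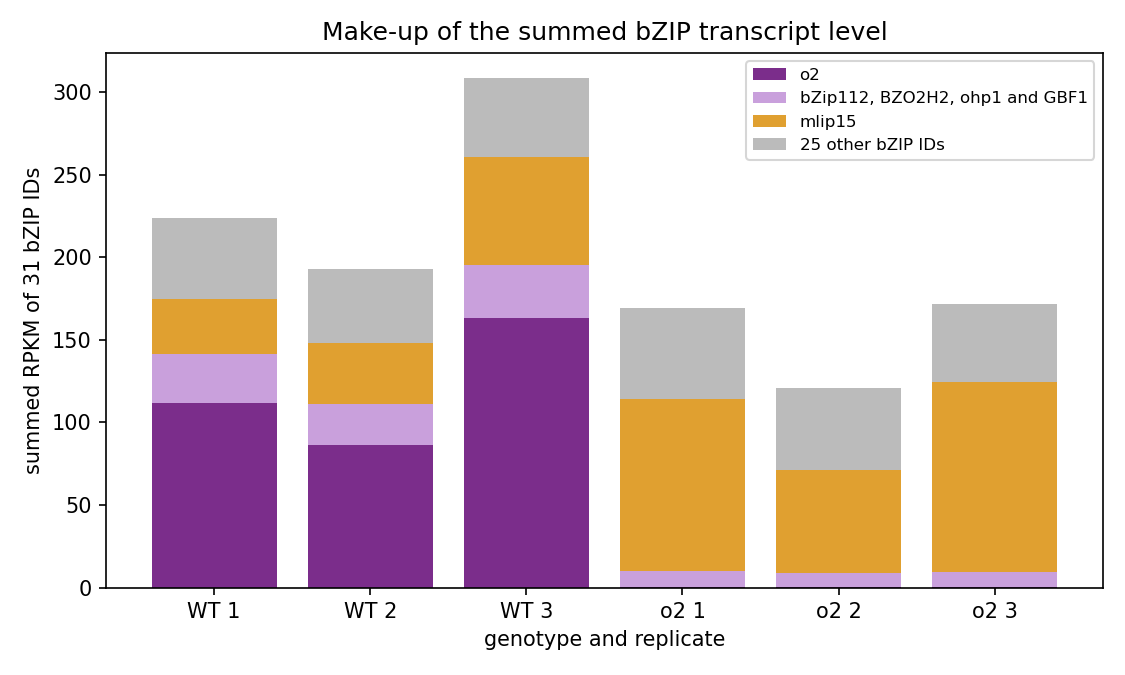
Summed RPKM of 31 bZIP IDs in each RNA library as stacked bars, split into o2, the other 4 factors together, mlip15 and the remaining 25 IDs. The o2 segment takes 44.7% to 53.0% of the WT bars and is too small to see in the mutant bars, where mlip15 takes 51.6% to 67.0%.

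Other factors known to act with Opaque-2 were looked up by symbol, and nac128, nac130, bzip22 and o11 matched no ID. The remaining symbols gave 10 IDs of 8 symbols: ohp2, pbf1, Nkd1, Nkd2, MADS47, vp1, gcn5 and ada2. Of 7 tested with limma, 1 was lower, 0 were higher and 6 were not called (without adjustment, 1 in each direction had p under 0.05), beside 2.07% of all tested genes lower and 1.49% higher. Their median log2 fold change was 0.11. Of the IDs under the filter, vp1 was lower and MADS47 higher in the mutant without overlap, and 1 ada2 ID overlapped. MADS47 had 0.518 ± 0.0329 RPKM in WT and 0.964 ± 0.333 RPKM in the mutant. The one called was Nkd2 (GRMZM5G884137), of the naked endosperm pair that acts in aleurone formation, with 6.19, 9.49 and 5.30 RPKM in WT and 2.20, 2.71 and 3.33 RPKM in the mutant (log2 fold change -1.29, limma adjusted p = 0.0476). That call was kept under 7 of 15 alternatives other than rescaling to equal column sums, with adjusted p from 0.0340 to 0.166, and was lost without WT replicate 1 or 2, without any 1 of the mutant replicates, without replicate 3 of both genotypes, with the replicate number as a block (adjusted p = 0.0868) and with eBayes without trend (adjusted p = 0.0502). Of the 2 aleurone markers, vp1 had 0.738 ± 0.255 RPKM in WT and 0.172 ± 0.134 RPKM in the mutant, below the filter, and Nkd1 had 15.9 ± 6.79 and 20.9 ± 1.28 RPKM (SD, n = 3 each). The part of aleurone cells in the value of Nkd2 was not tested. The prolamin-box factor gene pbf1 (GRMZM2G146283), whose protein binds the prolamin box of zein promoters, had 20.0, 17.5 and 16.4 RPKM in WT and 23.5, 38.4 and 44.2 RPKM in the mutant, without overlap. It was not called (log2 fold change 0.93, limma adjusted p = 0.115). A second pbf1 ID (GRMZM2G146267) and Nkd1 (GRMZM2G129261) had log2 fold changes of 0.11 and 0.51 (limma adjusted p = 0.821 and 0.505).

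Textbook targets of Opaque-2 were set beside the factors: 11 22-kDa alpha zein IDs, bz15, rip1, lkrsdh1 and the pyruvate phosphate dikinase genes PPDK2 and Ppdk1. Of these 16 IDs limma called 13 lower and 0 higher (16 and 0 at an unadjusted p under 0.05), with a median log2 fold change of -9.96, against 2.07% of tested genes lower. The 10 called alpha zeins (z1C2 and z1C1_1, z1C1_2, z1C1_4, z1C1_5, z1C1_6, z1C1_7, z1C1_8, z1C1_12 and z1C1_19) had log2 fold changes from -10.36 to -8.74. These near-identical copies may share reads in a way the sources do not state, so single values are uncertain. As 10 of the 13 calls are such copies, the calls are not separate observations, and the median is mostly that of the copies. PPDK2 and Ppdk1 had log2 fold changes of -1.71 and -1.69. The fall of rip1, a ribosome-inactivating protein gene, was -7.57 on the log2 scale, that of the beta zein gene bz15 -8.46 and that of the lysine-degrading enzyme gene lkrsdh1 -5.04 (limma adjusted p = 0.000777, 0.00714 and 0.00433). PPDK2, Ppdk1 and z1C1_11 were not called (adjusted p = 0.0585, 0.0501 and 0.0608), but passed under 3, 8 and 2 alternatives other than rescaling to equal column sums (adjusted p from 0.0400 to 0.205, 0.0391 to 0.156 and 0.00595 to 0.186). Over the 16 alternatives, 12 to 15 target IDs were called lower. The bz15 call was lost without mutant replicate 2 (adjusted p = 0.0509), and the other 12 were kept under all 16 alternatives.

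The genes with a name whose levels ran most like those of each factor were ranked by Pearson's r of log2(RPKM + 0.1) over the 6 libraries, among 383 or 384 named genes with a group mean of 10 RPKM or more. The 6 points share 2 genotypes, so any gene that is lost in the mutant scores high, and 5% of tested genes reached an r of 0.879 or more with o2. For o2 the closest were the 22-kDa alpha zein genes z1C1_19, z1C1_2 and z1C1_6, with r = 0.9997, 0.9997 and 0.9996. For GBF1 they were rip1, z1C2 and z1C1_7 (r = 0.9997, 0.999 and 0.997). For bZip112 they were the 19-kDa alpha zein gene z1A1_2, the delta zein gene dzs18 and bz15 (r from 0.996 to 0.997). For BZO2H2 they were lkrsdh1, the gene listed as aldh2 and z1C1_7 (r from 0.983 to 0.990). For ohp1 the highest r were 0.752, 0.723 and 0.723, with lbl1, lpa1 and EREB160. Among the factors themselves, r with o2 was 0.997 for GBF1, 0.990 for bZip112, 0.975 for BZO2H2 and 0.593 for ohp1.

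Genes near the 5 factors were looked at as well, a step added after the data were seen. Gene order came from the reference assembly and held only measured IDs that matched 1 reference gene. As 12657 of 28580 IDs were matched at all, other genes can lie between the IDs counted here. Around o2, 14 of the 20 nearest IDs of this order were tested, with a median log2 fold change of 0.04. Of these, 1 was called lower, where 2.07% of all tested genes were (3 had an unadjusted p under 0.05). The mutant values lay below every WT value in 4 of the 14 and above in 0, as they did in 11.7% and 14.4% of all tested genes, and over all 20 IDs in 7 and 2. The called ID, GRMZM2G328171, lay 4 places from o2 in this order. It had 5.75, 2.12 and 6.40 RPKM in WT and 0.596, 0.892 and 1.08 RPKM in the mutant. The ID next to o2 in this order on the other side, GRMZM5G864001, was under the filter and not tested. It had 0.802, 0.709 and 0.881 RPKM in WT and 0.0197, 0.0319 and 0.0263 RPKM in the mutant. GRMZM2G162359, 3 places from o2 and also not tested, went the other way. Its levels were 0.335, 0.0602 and 0.377 RPKM in WT and 0.857, 1.43 and 2.56 RPKM in the mutant. Around bZip112, 11 of 20 were tested and 1 was called higher, where 1.49% of all tested genes were (3 had an unadjusted p under 0.05). This was GRMZM2G103900, 3 places away, with 7.03, 6.45 and 7.93 RPKM in WT and 24.1, 22.5 and 51.0 RPKM in the mutant. The neighbour IDs named here were chosen after their values were seen. Around ohp1, GBF1 and BZO2H2, limma called 0 of 11, 14 and 16 tested neighbours (1, 2 and 1 at an unadjusted p under 0.05). Their log2 fold changes ran from -0.93 to 0.66. The unadjusted counts around all 5 factors have no share of all tested genes beside them, so nothing is read from them. Without overlap, the mutant was lower and higher in 0 and 2 tested neighbours of ohp1 and 1 and 1 of GBF1. For bZip112 these counts were 0 and 2 of 11, and for BZO2H2 3 and 1 of 16. Over all 20 IDs they were 4 and 2 for ohp1 and 3 and 1 for GBF1. They were 3 and 3 for bZip112 and 6 and 2 for BZO2H2. No share over all 28580 IDs was counted, so nothing is read from the counts over all 20 IDs.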

How the data were processed

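Levels were deposited by the authors as RPKM, 1 column per RNA library. Read totals per mapping class were deposited by the authors as counts. The aligner TopHat2 2.0.9, edgeR 3.2.4, bedtools 2.17.0, Trimmomatic and the build B73 RefGen_v3 are listed without roles, per the submitters' processing notes. How reads were counted, whether by strand, and the total behind the RPKM scale: not given in the sources used here. With unequal column sums and alike medians, a difference is relative to the typical gene of a library.

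Genes with 1 RPKM or more in at least 3 of 6 libraries (18687) were fitted as log2(RPKM + 0.1) with limma 3.58.1 in R 4.3.3 (eBayes with trend, genotype as the only term). A call is a Benjamini-Hochberg adjusted p under 0.05 over all of them, and every adjusted p is from this fit or its alternatives. The step was tested on simulated data. Gene names came from a RefSeq gene table (Zm-B73-REFERENCE-NAM-5.0), which matched 12657 of 28580 IDs; 407 of these met 2 or more reference genes. One ID (GRMZM2G052546) that only shares the symbol of rip1 was removed. The peak list was not used here, since it was not linked to genes.

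The 5 genes and all lists were chosen with earlier results of these data known. Named beside the 5 are, from each list, the called genes and the most abundant (5 of the bZIP list, 4 of each other list), and per factor the 3 named genes of highest r. The most abundant target IDs are alpha zeins already called. Exceptions are marked in the text. Alternatives were 15 planned fits and 1 added.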

Additional observations from a re-analysis of the deposited data

How the results depend on the processing

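Every alternative but one kept the direction of all 5 factors. The exception was rescaling the libraries to equal column sums. It put the median gene at a log2 fold change of 2.55, with 90 genes called lower and 18181 higher. On that scale the log2 fold changes were -6.40 for o2, -1.94 for bZip112, -1.15 for GBF1, 1.51 for BZO2H2 (reversed) and 2.40 for ohp1, all below the median gene. Of the other bZIP genes 14 and of the partner IDs 6 were then higher, 0 partner IDs were lower, and bZIP46 and Nkd2 turned to 2.21 and 1.22. A pseudocount of 0.01 gave -9.04 for o2, and a pseudocount of 1 gave -6.60 for o2, -3.06 for bZip112, -2.10 for GBF1 and -0.84 for BZO2H2, as the larger constant shrinks changes of low genes. With 1 library left out the values ran from -8.76 to -8.30 (o2), -4.63 to -4.09 (bZip112), -3.66 to -3.25 (GBF1), -1.09 to -0.93 (BZO2H2) and -0.17 to -0.05 (ohp1).

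The count of called genes, 387 lower and 279 higher, was 588 and 463 with no filter, 180 and 142 with a filter of 5 RPKM (which GBF1 did not pass), 157 and 142 without replicate 3 of both genotypes, and 84 to 378 and 14 to 399 with 1 library left out. With the replicate number as a block it was 197 and 143. Whether the numbers pair the samples is not known. Deviations of same-numbered libraries correlated at -0.02, 0.06 and 0.32, and those of differently numbered libraries at -0.24 to 0.23. With the block the call of Nkd2 was lost (0 partner IDs lower), as it was with eBayes without trend and without replicate 3 of both genotypes, and 0 to 1 remained with 1 library left out. Of the other bZIP genes 1 was called lower with no filter (bZIP124, adjusted p = 0.0451) and 1 under quantile normalization (bZIP7). The cause of these shifts was not tested. By Spearman's rho in place of r the closest genes were not singled out: counting the gene itself, 12 named genes reached the rho of each of the 3 closest to o2, 24 to 36 for GBF1, 12 to 25 for bZip112, 10 to 24 for BZO2H2 and 2 to 35 for ohp1. Without read counts per gene, the precision of values under 1 RPKM is unknown.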
